A study of Sus scrofa with 4 samples.

Results

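The SLC25 family of mitochondrial carriers was examined in the kidney RNA of genetically modified pigs. Members were the genes whose symbol begins with SLC25A and a digit, other than SLC25A20, and that had 10 or more counts in at least 1 library. This gave 42 genes among 18168 genes tested and 26466 gene symbols in all. SLC25A31, with 1 to 5 counts, and SLC25A53, with 0 to 4, fell under the minimum.

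The series holds 4 libraries, 1 for each of 4 groups, and was made to choose between a pair of donor genotypes by how well each eases rejection. All pigs carried the GalT-/- deletion, which removes the enzyme that makes the alpha-Gal antigen. One genotype, GalT-/-;hCD39;hCD55, also carried human CD39, which breaks down extracellular ATP and ADP, and human CD55, a complement regulator, and is called CD39/CD55 here. The other, GalT-/-;hCD39;hCD46;hCD55;TBM, further carried human CD46, another complement regulator, and thrombomodulin, and is called CD39/CD46/CD55/TBM. From each genotype 1 library came from an untransplanted kidney and 1 from a kidney that had been placed in a non-human primate, for 4 weeks where the donor was CD39/CD55 and 6 weeks where it was CD39/CD46/CD55/TBM. Genotype, time in the recipient and recipient therefore cannot be told apart in the transplanted kidneys. The promoters of the transgenes, the ages of the pigs and the number of animals were not stated in the labels. No kidney of an unmodified pig was among the samples.

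Most SLC25 proteins sit in the inner mitochondrial membrane and exchange metabolites between the matrix and the cytosol. They are built from a repeated pair of membrane helices, and each carries a narrow set of substrates, such as ADP and ATP, phosphate, citrate, malate, amino acids or cofactors. Tubule cells of the kidney, above all those of the proximal tubule, are rich in mitochondria and depend on such exchange for ATP supply, ammonia production and glucose synthesis.

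Total counts ran from 10346863 to 14092905 per library, and all 42 members had at least 1 count in every library. Members together took 0.327% of counts in untransplanted and 0.286% in transplanted CD39/CD55 kidney, against 0.250% and 0.240% in CD39/CD46/CD55/TBM pigs. Counts of the 13 mitochondrially encoded genes made up 10.6% and 4.23% of counts in CD39/CD55 pigs, against 15.0% and 12.6% in CD39/CD46/CD55/TBM pigs. None of 19 measured proximal tubule genes was at 0 in the untransplanted libraries, though being measured already required 10 or more counts in some library. Of the collecting duct list, AQP3 was at 0 in both untransplanted libraries and AQP2 had 14 and 27 counts there. The proximal tubule list was low after transplantation, with 11 of 19 genes past the test and a summed level of 22077.5 and 11779.8 scaled CPM (counts scaled to library size by TMM) in CD39/CD55 pigs, against 18805.5 and 3961 in CD39/CD46/CD55/TBM pigs. Its median log2 ratio was -2.44 and -3.18 in the same order, and SLC22A6 was at 0 counts in transplanted CD39/CD46/CD55/TBM kidney. SLC22A6 reached the count minimum only in untransplanted kidney. Of 9 measured macrophage and leukocyte genes 5 fell, with a summed level of 72.8 and 6.95 scaled CPM in CD39/CD55 pigs, against 65.6 and 11.5 in CD39/CD46/CD55/TBM pigs. The lymphocyte genes CD3E, CD3D, CD79A and MS4A1 of that list, with 0 to 7 counts, were under the minimum and not measured. TYROBP, C1QB, C1QC, CSF1R and CD2 reached the minimum only in untransplanted kidney. They were thus measured only through the state where they were high, which holds for all the genes that fell except C1QA. Whether reads of recipient leukocytes were counted is not described. Among other kidney cell types, 3 of 10 thick ascending limb and distal tubule genes, 2 of 7 podocyte genes, 1 of 7 endothelial genes, 1 of 8 fibroblast and smooth muscle genes and none of 9 collecting duct genes fell. Ribosomal RNA took 10.8% and 22.4% of counts, and 12.6% and 18.9%, in the same order. The part of these shifts in the results for the carriers was not tested. In bulk RNA, fewer cells of a type and less RNA per cell cannot be told apart.

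Transplanted kidneys had lower counts of a set of metabolite carriers in both genotypes. Called in neither genotype were 22 of 42 members (52.4%), of various roles, beside 10024 of the 18168 genes tested. In the comparison of both transplanted with both untransplanted libraries, 3 of 42 members fell and none rose. These were SLC25A48, a choline carrier, SLC25A1, the citrate carrier, and SLC25A27, an uncoupling protein relative also known as UCP4. The test was edgeR's quasi-likelihood test with Benjamini-Hochberg adjustment over all genes, and by it 2.71% of all genes tested fell and 1.24% rose. The 3 members are 7.14% of the family. At an unadjusted p under 0.05, 11 members (26.2%) were lower and 4 (9.52%) higher, against 10.7% and 8.99% of all genes, so the higher share was near the background. The spread in this test comes from libraries that differ in genotype. With genotype as a block, 10 members fell, against 9.25% of all genes. With it 3 members, SLC25A16, SLC25A24 and SLC25A29, rose, which is 7.14% and near the 6.19% of all genes.

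Within each genotype 1 library was set against 1, so no test applies. A gene was called higher or lower where the scaled counts differed at least 2-fold and the exact 95% counting interval of the ratio excluded 1. By that rule 11 members were lower and 3 higher after transplantation in CD39/CD55, against 13.7% and 13.2% of all genes. In CD39/CD46/CD55/TBM 13 were lower and 6 higher, against 16.3% and 15.9%. The same 10 members, 23.8% of the family, were lower in both genotypes, where 7.63% of all genes were. They are also the 10 that fell with the block, a fit to the same 4 libraries and so no separate support. The 3 members higher in both, SLC25A24, SLC25A29 and SLC25A47, are 7.14% of the family, near the 5.88% of all genes. SLC25A47 reached the count minimum only in transplanted kidney, so it is a member only through the state where it was higher. The family's median log2 ratio was -0.10 in CD39/CD55 pigs, against 0.00 in CD39/CD46/CD55/TBM pigs, beside 0.02 and 0.01 for all genes. In the plot of the paired ratios the lower members lie away from 0, which the call rule itself requires.

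**Figure D1:**
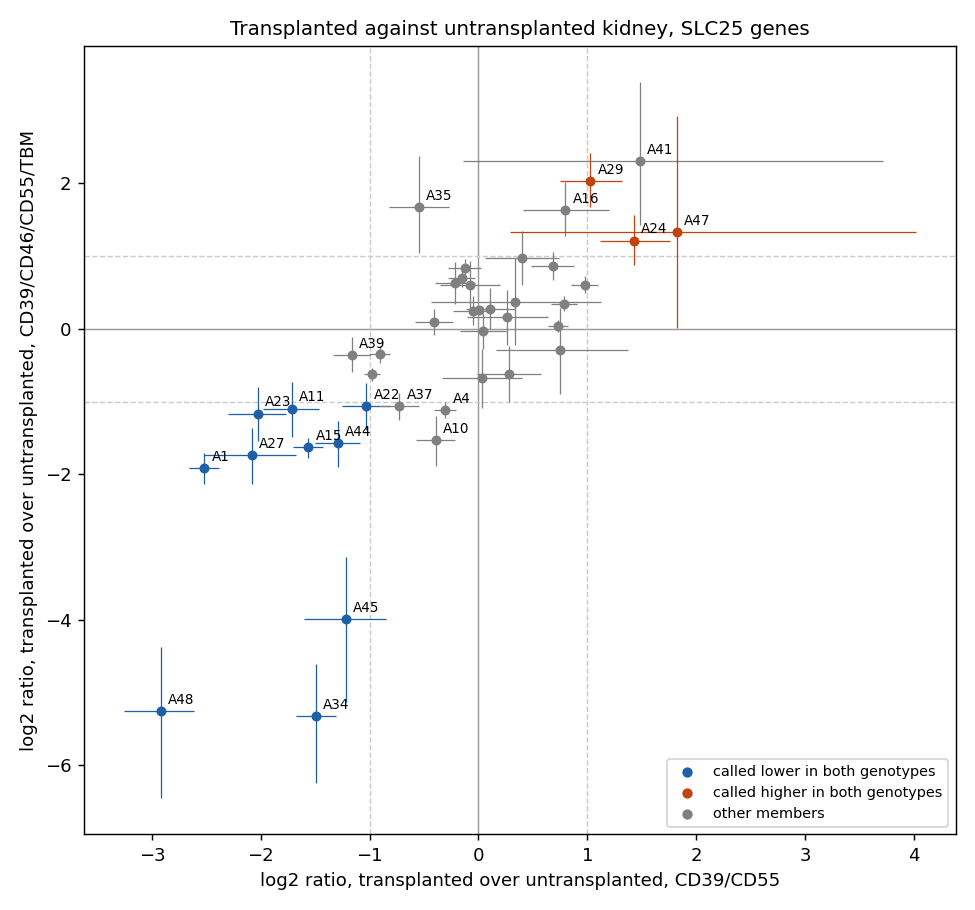
Log2 ratio of transplanted over untransplanted scaled counts for 41 of the 42 SLC25 genes, in CD39/CD55 (x axis) and CD39/CD46/CD55/TBM (y axis), with 95% counting intervals as bars and 2-fold marked by dashed lines. Points called in at least 1 genotype carry the end of the gene's symbol (A48 for SLC25A48). SLC25A34, SLC25A45 and SLC25A48 lie far lower on the y axis (-5.33, -3.99 and -5.25) than on the x axis.

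SLC25A48 gave the largest change of any member by the fitted log2 fold change. It lies on chromosome 2 from 137979811 to 138035582 (Sscrofa11.1, as are all positions here). Its counts were 759 in untransplanted and 90 in transplanted CD39/CD55 kidney, against 438 and 9 in CD39/CD46/CD55/TBM pigs. Both transplanted values lay below both untransplanted ones, and transplanted CD39/CD46/CD55/TBM kidney was the lowest by a wide margin. How many of all genes separate by state in this way was not counted, here or for the members below. A 2-fold call in the same direction in both genotypes makes such a separation likely. The log2 fold change was -3.45 (SE 0.72, adjusted p = 0.0207 by edgeR). It passed the threshold under all 11 alternatives tried, some of which leave 1 library in a state, and ran from -5.67 to -2.62 over them. Within the genotypes the log2 ratios were -2.92 (95% counting interval -3.26 to -2.61) and -5.25 (-6.45 to -4.38).

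SLC25A34 and SLC25A45, carriers whose substrates are less settled, were also lowest in transplanted CD39/CD46/CD55/TBM kidney. SLC25A34 had 1016 and 325 counts in CD39/CD55 pigs, against 707 and 14 in CD39/CD46/CD55/TBM pigs, with log2 ratios of -1.49 (-1.68 to -1.31) and -5.33 (-6.25 to -4.61). SLC25A45 had 215 and 83 counts, and 202 and 10, with log2 ratios of -1.22 (-1.61 to -0.85) and -3.99 (-5.13 to -3.14). In both genes the transplanted kidneys were farther apart than the untransplanted ones, whose log2 ratio between the genotypes was -0.41 and 0.03. By edgeR neither passed over both genotypes (adjusted p = 0.162 and 0.117). Leaving out the transplanted CD39/CD55 library, so that 1 transplanted library remained, gave log2 fold changes of -5.57 for SLC25A34 and -4.01 for SLC25A45. Leaving out the transplanted CD39/CD46/CD55/TBM library instead gave -1.30 and -1.23.

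The other members of that group, which holds genes of the outer membrane and of uncertain transport, went other ways. SLC25A47, a gene known from liver, had 4 and 14 counts in CD39/CD55 pigs, against 7 and 15 in CD39/CD46/CD55/TBM pigs. Its higher call in both rests on few reads (lower interval bounds 0.29 and 0.01), and it met the count minimum only in transplanted kidney. SLC25A46, an outer membrane protein linked to mitochondrial division, had 234, 200, 139 and 172 counts in the order untransplanted and transplanted CD39/CD55, then untransplanted and transplanted CD39/CD46/CD55/TBM. SLC25A43 had 131, 121, 155 and 79 counts in that order. No call was made for SLC25A46 or SLC25A43 in either genotype. SLC25A35 had 287, 177, 28 and 74 counts and was called higher in CD39/CD46/CD55/TBM pigs only (1.67, interval 1.05 to 2.37).

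Di- and tricarboxylate carriers connect the tricarboxylic acid cycle with the cytosol, and 2 of the 4 were called lower in both genotypes. SLC25A1 exports citrate, the source of cytosolic acetyl-CoA for fatty acid synthesis (chromosome 14, 50974616 to 51002970). It had 3311 and 520 counts in CD39/CD55 pigs, against 1063 and 230 in CD39/CD46/CD55/TBM pigs. The transplanted values lay below the untransplanted ones, but the untransplanted kidneys themselves differed by a log2 ratio of -1.52. The gene's span overlaps that of the pseudogene LOC100155135 by 3770 bases. No counts were given for the pseudogene, and its part was not tested. SLC25A1 fell by 2.34 in log2 (SE 0.56, edgeR adjusted p = 0.0352). Without the untransplanted CD39/CD55 library the log2 fold change was -1.39 and the adjusted p 0.266, and without the transplanted CD39/CD46/CD55/TBM library the adjusted p was 0.0631. Over all alternatives it ran from 4.93e-05 to 0.266.

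SLC25A11, which exchanges oxoglutarate for malate in the malate-aspartate shuttle, had 588 and 161 counts in CD39/CD55 pigs, against 215 and 82 in CD39/CD46/CD55/TBM pigs. Its log2 ratios were -1.72 (-1.98 to -1.47) and -1.10 (-1.49 to -0.73). Its span overlaps that of RNF167 by 18 bases. RNF167 had log2 ratios of -1.55 and -0.03, and its part in the SLC25A11 counts was not tested. SLC25A10, the dicarboxylate carrier, was called lower in CD39/CD46/CD55/TBM only, with 620, 425, 337 and 95 counts in the order used above. Its ratios of -0.39 and -1.53 were close to those of the overlapping LOC110255939, -0.33 and -1.40, and whether the pair shared reads was not tested. SLC25A21, which carries oxodicarboxylates of lysine and tryptophan breakdown, had 906, 1406, 1553 and 1610 counts and no call.

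Among amino acid carriers the ornithine carrier SLC25A15 (chromosome 11, 15494176 to 15551172) was called lower after transplantation in both genotypes. It had 1829 and 558 counts in CD39/CD55 pigs, against 2088 and 551 in CD39/CD46/CD55/TBM pigs. The groups of untransplanted and transplanted kidneys did not overlap. The log2 ratios were -1.56 (-1.70 to -1.43) and -1.63 (-1.77 to -1.50), with a difference of -0.07 (-0.26 to 0.12). By edgeR the log2 fold change was -1.60 (SE 0.42, adjusted p = 0.0531), just outside the threshold, and the adjusted p ran from 0.00145 to 0.170 over the alternatives. The overlapping LOC100625564 had ratios of -1.64 and -2.03, and its part was not tested.

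SLC25A44, which carries branched-chain amino acids, had 713 and 262 counts in CD39/CD55 pigs, against 393 and 108 in CD39/CD46/CD55/TBM pigs, and was called lower in both (-1.29 and -1.57). The glutamate carrier SLC25A22 had 556 and 245 counts, and 299 and 117, and was also called lower in both (-1.03 and -1.06). In these 2 genes both transplanted values lay below both untransplanted ones, a separation whose share over all genes was not counted.

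SLC25A29, a carrier of basic amino acids, went the opposite way to SLC25A15. It had 164 and 302 counts in CD39/CD55 pigs, against 82 and 275 in CD39/CD46/CD55/TBM pigs, with log2 ratios of 1.03 (0.75 to 1.31) and 2.03 (1.68 to 2.41). Both transplanted values were above both untransplanted ones. The adjusted p by edgeR was 0.0948, and 0.00615 to 0.387 over the alternatives. The ratio of SLC25A29 to SLC25A15 counts went from 0.0897 to 0.541 in CD39/CD55 pigs and, likewise, from 0.0393 to 0.499 in CD39/CD46/CD55/TBM pigs. SLC25A29 lies 11.8 kb from SLC25A47 on chromosome 7, and these neighbours were both called higher in both genotypes.

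The aspartate/glutamate carriers SLC25A12 and SLC25A13, which work in the malate-aspartate shuttle, were not called lower. SLC25A12 had 355 and 513 counts in CD39/CD55 pigs, against 368 and 548 in CD39/CD46/CD55/TBM pigs, log2 ratios of 0.68 (0.48 to 0.88) and 0.86 (0.67 to 1.06). SLC25A13 had 778 and 643 counts, and 905 and 1321, with ratios of -0.13 (-0.28 to 0.03) and 0.84 (0.71 to 0.96). Neither passed the test (adjusted p = 0.301 and 0.607 by edgeR). The glycine carrier SLC25A38 had 547, 425, 180 and 227 counts and no call for transplantation.

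SLC25A4, SLC25A5 and SLC25A6 exchange ADP for ATP and are close relatives in sequence, so reads may be shared between them or with processed copies. SLC25A6 had 14546 and 13175 counts in CD39/CD55 pigs, against 8319 and 8166 in CD39/CD46/CD55/TBM pigs, log2 ratios of 0.01 (-0.03 to 0.04) and 0.26 (0.22 to 0.31). Its values sorted by genotype and not by state. SLC25A5 had 4972 and 2277 counts, and 3127 and 1659, with ratios of -0.98 (-1.05 to -0.91) and -0.62 (-0.71 to -0.54). SLC25A4 had 1961 and 1430 counts, and 2603 and 982, with ratios of -0.31 (-0.41 to -0.21) and -1.12 (-1.22 to -1.01), the latter called lower. None of the 3 passed over both genotypes (adjusted p = 0.923, 0.332 and 0.377 by edgeR, in the order named).

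The ATP-Mg/phosphate carriers adjust the adenine nucleotide content of the matrix, and here SLC25A23 was called lower and SLC25A24 higher in both genotypes. SLC25A23 had 648 and 143 counts in CD39/CD55 pigs, against 231 and 84 in CD39/CD46/CD55/TBM pigs, log2 ratios of -2.03 and -1.17. SLC25A24 had 117 and 285 counts, and 108 and 205, log2 ratios of 1.43 and 1.21. The untransplanted and transplanted values did not overlap in either gene. By edgeR neither passed (adjusted p = 0.0791 and 0.105). Since both were counted in the same library, their ratio does not depend on scaling: SLC25A24 per SLC25A23 count went from 0.181 to 1.99 in CD39/CD55 pigs and, likewise, from 0.468 to 2.44 in CD39/CD46/CD55/TBM pigs. These are log2 changes of 3.46 (95% Wald counting interval 3.06 to 3.87) and 2.38 (1.89 to 2.88). This pair of genes, like that of SLC25A29 and SLC25A15, was chosen after their values were seen. Each pair joins a member called higher in both genotypes with one called lower in both, so a rise of its ratio follows from the calls. Ratios of other related carriers were also computed, and not all of them moved the same way in both genotypes. SLC25A25 had 133 and 158 counts, and 98 and 157, with no call. SLC25A41, which lies 1.93 kb from SLC25A23 on chromosome 2, had 4 and 11 counts, and 12 and 50, and was called higher in CD39/CD46/CD55/TBM (2.30, interval 1.42 to 3.39).

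**Figure D2:**
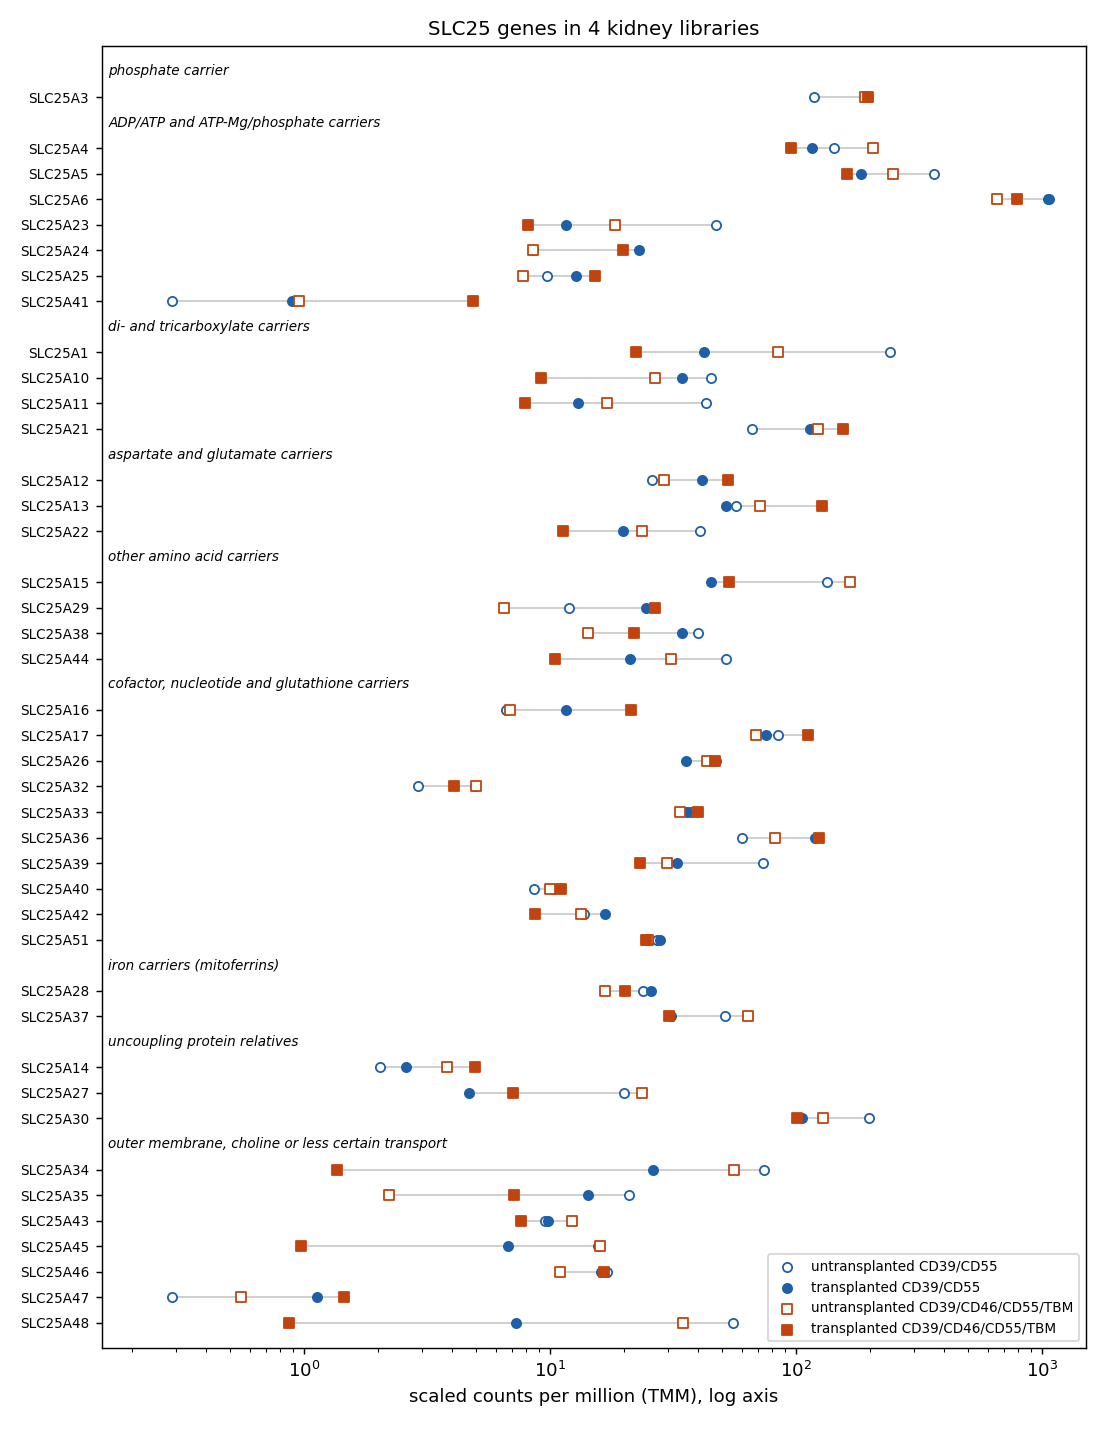
Scaled CPM (log axis) of 41 of the 42 SLC25 genes in each of the 4 libraries, grouped by role, with open symbols for untransplanted and filled symbols for transplanted kidney. Values are to be compared along a row, since gene length was not taken into account. In SLC25A48 and SLC25A1 both filled symbols lie left of both open ones, and in SLC25A24 and SLC25A29 right of them.

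The phosphate carrier SLC25A3, which supplies phosphate for ATP synthesis, had 1627 and 2430 counts in CD39/CD55 pigs, against 2415 and 2026 in CD39/CD46/CD55/TBM pigs. The low value was that of the untransplanted CD39/CD55 kidney, and no call was made (log2 ratios 0.73 and 0.04). Of the uncoupling protein relatives, SLC25A27 (chromosome 7, 41426161 to 41457887) had 274 and 58 counts, and 299 and 73. The states did not overlap, and the log2 ratio between the genotypes was 0.24 in untransplanted and 0.59 in transplanted kidney. SLC25A27 fell by 1.89 in log2 (SE 0.45, edgeR adjusted p = 0.0357). It passed under 10 of 11 alternatives (0.000888 to 0.0757) and did not pass once the untransplanted CD39/CD46/CD55/TBM library was left out. SLC25A30, also known as the kidney mitochondrial carrier protein, had 2720 and 1308 counts, and 1623 and 1040, lower by less than 2-fold in both (-0.91 and -0.35). SLC25A14 had 28 to 51 counts and no call.

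Carriers of cofactors, nucleotides and glutathione formed the largest group. Of its 11 members 9 had no call in either genotype, beside 10024 of the 18168 genes tested. SLC25A16, linked to coenzyme A supply, was called higher in CD39/CD46/CD55/TBM, with 91 and 143 counts in CD39/CD55 pigs, against 87 and 221 in CD39/CD46/CD55/TBM pigs (log2 ratios 0.80 and 1.63). SLC25A39, a glutathione importer, was called lower in CD39/CD55, with 1007 and 405 counts there, against 376 and 240 in CD39/CD46/CD55/TBM pigs (-1.16 and -0.36). Its high value was that of the untransplanted CD39/CD55 kidney alone. SLC25A40, the related glutathione importer, had 118, 128, 126 and 115 counts. SLC25A36, a pyrimidine nucleotide carrier, had 830, 1473, 1034 and 1286 counts, with log2 ratios of 0.98 and 0.60. The NAD carrier SLC25A51 had ratios of 0.04 and -0.03, and SLC25A33, another pyrimidine nucleotide carrier, -0.05 and 0.25. SLC25A17, the peroxisomal member, had 1155, 935, 870 and 1153 counts. SLC25A26 (S-adenosylmethionine), SLC25A32 (folate and FAD) and SLC25A42 (coenzyme A) had no call.

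The mitoferrins bring iron to the matrix for heme and iron-sulfur cluster synthesis. SLC25A37, mitoferrin 1, had 708 and 385 counts in CD39/CD55 pigs, against 809 and 316 in CD39/CD46/CD55/TBM pigs, and its log2 ratios were -0.73 (-0.91 to -0.55) and -1.07 (-1.26 to -0.88). Both transplanted values lay below both untransplanted ones, and the second ratio was called lower. SLC25A28, mitoferrin 2, had 327 and 318 counts, and 211 and 209, with ratios of 0.11 (-0.12 to 0.34) and 0.28 (-0.01 to 0.56). By edgeR neither passed (adjusted p = 0.227 and 0.843).

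Span and position were not used to choose the members, whereas abundance entered through the count minimum. Untransplanted levels are also the base of the ratios that formed the groups below, so they are no independent trait of them. Gene length was not taken into account in these levels. The 10 lower members had a median of 37.1 scaled CPM in untransplanted kidney (15.8 to 163), the 3 higher members 8.53 and the remaining 29 members 27.5. Median gene spans were 19.1 kb, 14.2 kb and 29.3 kb in the same order. A position on a chromosome was given for 41 members, on 13 chromosomes, and 13 members overlap another annotated gene, 3 of them among the 10 lower members.

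The change with transplantation was then compared between the genotypes as a ratio of ratios, again with counting error only. A difference of at least 2-fold with its 95% Wald counting interval excluding 1 was found for 7 members. Of these 2 were higher in CD39/CD46/CD55/TBM, against 10.3% of all genes, and 5 lower, against 11.5%. The lower ones were SLC25A34 (-3.83, interval -4.61 to -3.06), SLC25A45 (-2.77, -3.74 to -1.80), SLC25A48 (-2.33, -3.31 to -1.35), SLC25A10 (-1.14, -1.51 to -0.76) and SLC25A32 (-1.04, -1.84 to -0.24). SLC25A32 had 40, 61, 63 and 42 counts. The higher ones were SLC25A35 (2.22, 1.54 to 2.90) and SLC25A29 (1.001, 0.55 to 1.45). SLC25A29 was just past the 2-fold limit, and its difference was 0.96 without a filter on low counts and 0.99 with a prior count of 2, so its call was lost under both. In SLC25A17, SLC25A35 and SLC25A38 the intervals of the 2 genotypes excluded 1 on opposite sides, which is 7.14% of members, against 7.57% of all genes. Beside these values, 18 of 19 proximal tubule genes were called lower in CD39/CD46/CD55/TBM and 13 in CD39/CD55. The part of tubule cell content in the differences between the genotypes was not tested.

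Between the untransplanted kidneys 6 members were called lower in CD39/CD46/CD55/TBM than in CD39/CD55 and none higher, against 7.88% and 8.15% of all genes. SLC25A35, a carrier of uncertain substrate, differed most, with 287 counts in CD39/CD55 kidney, against 28 in CD39/CD46/CD55/TBM, a log2 ratio of -3.22 (-3.86 to -2.68). The other 5 were SLC25A1 (-1.52), SLC25A38 (-1.48), SLC25A23 (-1.37), SLC25A11 (-1.33) and SLC25A39 (-1.30). RANGRF, which overlaps SLC25A35 by 30 bases, had 462 and 147 counts in the same kidneys, a log2 ratio of -1.53. ARHGEF15, which overlaps it by 564 bases, had 33 and 25 counts, a log2 ratio of -0.28. The part of either was not tested.

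Between the transplanted kidneys 5 members were called lower in CD39/CD46/CD55/TBM and 2 higher, against 11% of all genes in each direction. The lower ones were SLC25A34 (-4.24, interval -5.17 to -3.51), SLC25A48 (-3.01, -4.24 to -2.08), SLC25A45 (-2.74), SLC25A10 (-1.90) and SLC25A44 (-1.02). The higher ones were SLC25A41 (2.39, 1.48 to 3.53) and SLC25A13 (1.30, 1.16 to 1.44). SLC25A35 had 177 and 74 counts after transplantation, a log2 ratio of -0.996. No member was called in both states, where 4.83% of all genes were and 3.84% in the same direction, and SLC25A35 missed the second call narrowly.

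**Figure D3:**
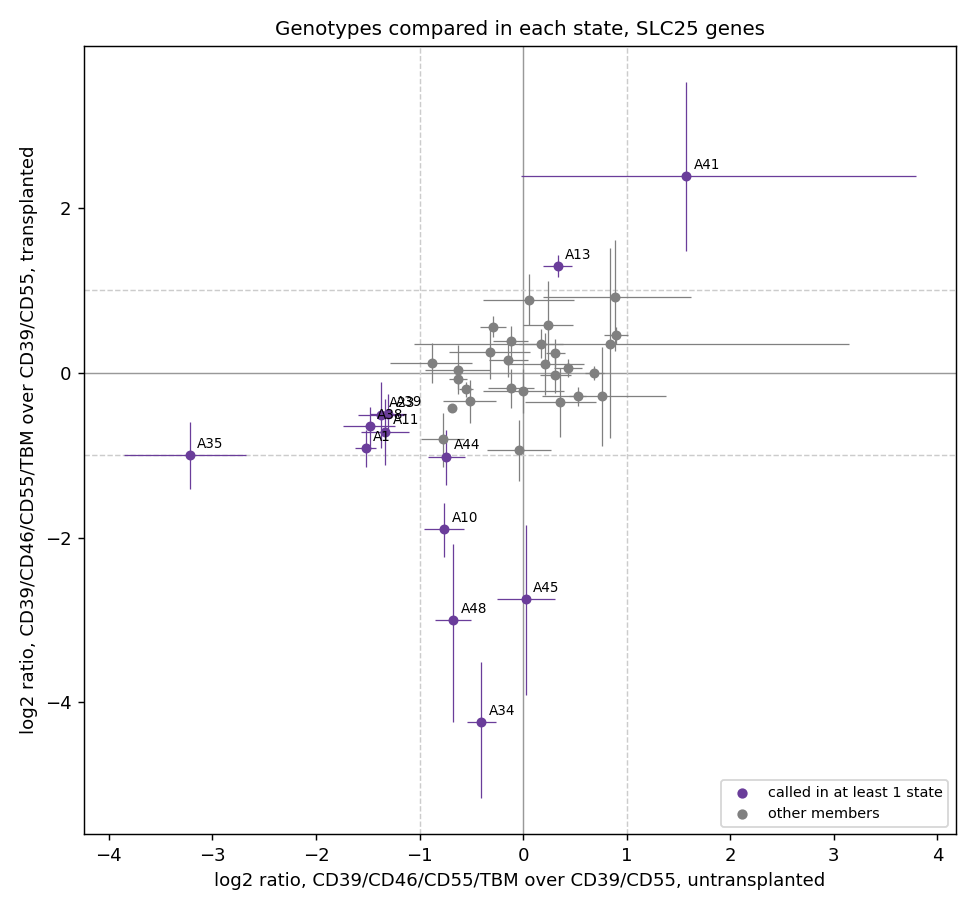
Log2 ratio of CD39/CD46/CD55/TBM over CD39/CD55 scaled counts for 41 of the 42 SLC25 genes in untransplanted (x axis) and transplanted kidney (y axis), with 95% counting intervals as bars, 2-fold as dashed lines and called genes named by the end of their symbol. SLC25A35 stands apart on the x axis at -3.22, and SLC25A34, SLC25A48 and SLC25A45 on the y axis at -4.24, -3.01 and -2.74.

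Over both states no member differed between the genotypes by edgeR's quasi-likelihood test, nor did any of the 18168 genes, so 0% were called in each direction. At an unadjusted p under 0.05 there were 449 genes (1.43% of all genes lower and 1.05% higher), and 1 member, SLC25A35 (log2 fold change -1.91, adjusted p = 0.982). DESeq2's Wald test called 17 genes and limma voom none, with no member in either, and at an unadjusted p under 0.05 they gave 579 and 385 genes with 1 and 2 members. With state as a block, SLC25A34 and SLC25A35 were lower in CD39/CD46/CD55/TBM, where 0.941% of all genes were lower and 0.732% higher. The edgeR adjusted p of SLC25A35 was then 0.0233. Its adjusted p under each of the other alternatives was 0.590 or higher.

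Other genes that work with the carriers were taken from lists chosen for their roles. Among 23 measured mitochondrial transporters outside the SLC25A symbols 2 fell and none rose. SFXN2, a sideroflexin, fell by 3.14 in log2 (SE 0.44, edgeR adjusted p = 0.00313), from 1320 to 165 counts in CD39/CD55 pigs and, likewise, from 1324 to 98 in CD39/CD46/CD55/TBM pigs. MTCH2, an outer membrane member of the SLC25 fold, fell by 1.76 (SE 0.43, adjusted p = 0.0395), from 1987 to 520 and from 1299 to 323 counts. MPC1, of the mitochondrial pyruvate carrier, had 5995, 2343, 3818 and 1012 counts and did not pass (adjusted p = 0.145). Of the same list 6 genes were called lower and 1 higher in both genotypes, where 7.63% of all genes were lower and 5.88% higher.

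The import machinery that inserts carriers into the inner membrane had 16 measured genes, and none passed the test. TIMM22, its inner membrane channel, had 145 and 194 counts in CD39/CD55 pigs, against 151 and 99 in CD39/CD46/CD55/TBM pigs. The list's median log2 ratio was -0.50 and -0.68 in the same order of genotypes, and 1 gene, TIMM13, named after its values were seen, was called lower in both. None of 12 malate-aspartate and ammonia enzymes passed (medians -0.70 and -1.09). The aspartate aminotransferase gene GOT2 had 5884 and 1729 counts, and 2253 and 813, and its cytosolic partner GOT1 had 821 and 316, and 689 and 417. Of 20 tricarboxylic acid cycle genes none passed, the medians were -1.07 and -0.87, and 6 were called lower in both genotypes. Of all genes 7.63% were called lower in both. Citrate synthase, CS, had 3705 and 2091 counts, and 2006 and 1768.

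**Figure D4:**
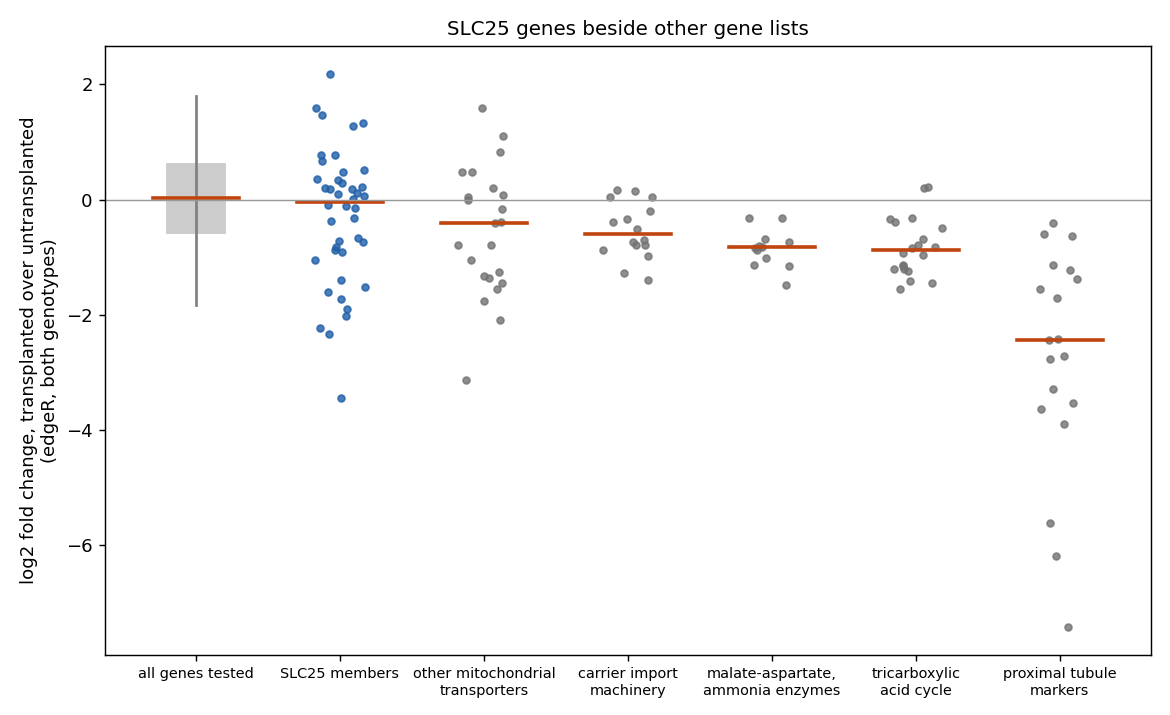
Log2 fold change of transplanted over untransplanted kidney (edgeR, 2 libraries against 2) for the SLC25 genes, 4 lists of related mitochondrial genes and proximal tubule markers, 1 point per gene, with medians as red lines. All genes tested are shown by a box for the interquartile range and a thin line from the 5th to the 95th percentile. The SLC25 median of -0.04 is near that of all genes (0.03), while the tricarboxylic acid cycle median is -0.88 and the proximal tubule median -2.44.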

How the data were processed

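RNA of pig kidney was sequenced in 4 libraries, 1 per group. Raw read counts by gene were deposited by the authors, 1 file per library. Per the labels' protocols total RNA came from a phenol/chloroform extraction and libraries from a Lexogen kit. Per the submitters' processing notes Bowtie2, bedtools and Sscrofa11.1 were used. Strand, multi-mapping and reads of the primate recipient are not described in the sources used here, so overlapping or near-identical genes are uncertain.

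Lines of the same symbol were summed (26965 lines, 26466 symbols). Genes with 10 or more counts in at least 1 library were kept and scaled by TMM. Ratios used a prior count of 0.5 and exact (Clopper-Pearson, conditional binomial) 95% intervals, which cover counting error only. States and genotypes were tested by edgeR 4.0.16 (R 4.3.3) with 2 residual degrees of freedom and a threshold of 0.05. The fit with the other factor as block leaves fewer residual degrees of freedom. The SE is the fold change over the root of F. Nothing says how many animals were used, so p-values measure the spread between these libraries. Alternatives used DESeq2 1.42.0 and limma 3.58.1, and the code was tested on simulated data. All members were counted, and 1 is not reported here by itself; those past a test, called, or among the 10 with most counts were given in full. Members, lists and rules were chosen with earlier results of these data known. Positions are from the RefSeq gene table of Sscrofa11.1, which matched all 42 members. No sequences were used.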

Additional observations from a re-analysis of the deposited data

Results flagged for a closer look

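In 3 members the counting intervals excluded 1 in both genotypes but on opposite sides, so that the transplanted library was higher than the untransplanted one in 1 genotype and lower in the other. These are 7.14% of members, near the 7.57% of all genes that met the same condition. The difference was not tested, since each genotype has 1 library per state. SLC25A35 had a log2 ratio of -0.55 in CD39/CD55 pigs, against 1.67 in CD39/CD46/CD55/TBM pigs, a difference of 2.22. Its lowest count, 28, was that of untransplanted CD39/CD46/CD55/TBM kidney. SLC25A17 had -0.15 and 0.70, a difference of 0.85. SLC25A38 had -0.21 and 0.62, a difference of 0.84. SLC25A17 and SLC25A38 changed by less than 2-fold in each genotype.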

How the results depend on the processing

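With 1 library per group, depth limits members with few reads, such as SLC25A41 and SLC25A47, and no setting can replace replicates. The cause of the shifts below was not tested. No paired analysis was possible because the labels give no replicate numbers; the block used is the other factor. For transplantation over both genotypes, members lower went from 3 to 9 without a filter, 5 by DESeq2's Wald test and 10 with the block, and 2 to 9 when 1 library was left out, where a lone library is assumed to vary like the others. Members higher went from 0 to 3 with the block, and 0 to 3 with 1 library left out. Without the transplanted CD39/CD55 library the members lower were 9 and higher 3, the latter SLC25A16, SLC25A29 and SLC25A41. With untransplanted CD39/CD46/CD55/TBM left out 5 were lower. Over all genes 225 higher and 493 lower became 543 and 1035 without a filter, 431 and 865 by DESeq2, 1124 and 1681 with the block, and 186 to 1051 and 392 to 1349 with 1 library left out, the highest without the transplanted CD39/CD55 library. With 1 library left out, the log2 fold change of SLC25A17 ran from -0.014 to 0.55, reversed when transplanted CD39/CD46/CD55/TBM was left out. That of SLC25A6 ran from -0.20 to 0.50, reversed to -0.11 when transplanted CD39/CD55 and to -0.20 when untransplanted CD39/CD46/CD55/TBM was left out. Neither gene passed the test in any of these.

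For the genotypes over both states, DESeq2 gave 12 genes higher and 5 lower, the block 133 and 171 with 2 members lower, and leaving out 1 library 0 to 14 and 0 to 4.

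A 1.5-fold rule moved members called for transplantation to 9 higher in CD39/CD55 and 13 higher in CD39/CD46/CD55/TBM, and all genes to 3990 higher and 4110 lower, and 4355 and 4554. Beyond the members lower at 2-fold, it called SLC25A5, SLC25A30 and SLC25A37 lower in CD39/CD55. In CD39/CD46/CD55/TBM it added SLC25A5, SLC25A42 and SLC25A43 as lower. It gave 4 members higher and 14 lower between untransplanted kidneys (2970 and 3068 genes), 5 and 11 between transplanted kidneys (3577 and 3663), and 11 and 9 for the difference of changes (3296 and 3450). Without a filter, or with a prior count of 2, the difference was called higher in 1 member, SLC25A35, and not in SLC25A29. Leaving out the 13 members that overlap another gene, an alternative chosen after seeing the data, left 3 members lower between untransplanted kidneys, and 1 higher and 3 lower for the difference. DESeq2's size factors, and leaving out ribosomal RNA and mitochondrially encoded loci, changed no count of members.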
